A study of Mus musculus with 12 samples.

Results

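The unfolded protein response and the integrated stress response were examined in mouse regulatory T cells (Treg) through a list of 32 genes for endoplasmic reticulum (ER) chaperones, ER stress signalling and the ATF4 pathway. Members were taken by name, and the list was drawn up with earlier results of these data known. All 32 were found in both deposited expression tables, which hold 16232 genes in vivo and 24421 genes in vitro. By role, 15 are ER chaperones and foldases, 4 belong to ER-associated degradation, 4 are stress sensors and their transcription factors and 9 belong to the integrated stress response. Polyadenylated RNA had been sequenced from Treg of spleen and lymph nodes in 12 libraries, 6 groups of 2. Wild type (WT) and Kdm2b conditional knockout (cKO) cells were each sampled in vivo, unstimulated in culture and stimulated in culture. Kdm2b encodes the CpG-binding subunit of the Polycomb complex PRC1.1. The labels give neither the Cre line nor the age or strain of the mice, and they name neither the stimulus nor its duration. They do not say whether the libraries of a group came from separate mice or cultures, so p-values measure only the spread between these libraries, which may be technical.

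Proteins enter the secretory pathway through the ER, where chaperones of the HSP70 and HSP90 families, lectin chaperones and disulfide isomerases fold them and where misfolded chains are handed to the cytosolic proteasome. Unfolded protein activates the sensors IRE1 (Ern1), PERK (Eif2ak3) and ATF6. IRE1 splices Xbp1 mRNA so that it encodes an active transcription factor, cleaved ATF6 induces chaperone genes, and PERK phosphorylates eIF2, which lowers general translation and raises translation of ATF4. Other kinases, among them GCN2, which senses uncharged tRNA, phosphorylate the same eIF2, and this shared arm is the integrated stress response. The values here are gene-level RNA, so neither Xbp1 splicing, ATF6 cleavage, eIF2 phosphorylation nor ATF4 protein was measured.

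The 2 transcriptional arms read different DNA elements. The ER stress element (ERSE) is CCAAT and CCACG with 9 bases between them. ERSE-II is ATTGG and CCACG with 1 base between them, and the C/EBP-ATF response element (CARE) read by ATF4 is TGATG, any 1 base, then AA. Each was searched on both strands in RefSeq promoters of GRCm38.p6, from 250 bases before to 50 after each start. ERSE and ERSE-II both hold CCACG and a CCAAT box, which ERSE-II holds in reverse, and neither overlaps CARE in the stretches printed here. Of the 32 members, 29 had an entry, and Manf, Atf6 and Hyou1 were not analysed here. ERSE was found in 8 of the 29 (27.6%) against 0.119% of 32851 promoters, in Hspa5, Hsp90b1, Calr, Canx, Pdia6, Dnajc3, Creld2 and Syvn1. ERSE-II was found in Herpud1 and Dnajb11 (0.0365% of promoters). CARE was found in Asns, Atf3, Chac1, Herpud1 and Trib3, against 3.97% of promoters. The stretches below carry the elements of 4 chaperone or co-chaperone genes and of 4 genes with CARE, chosen to show where these letters lie, 5′ to 3′ on the gene's own strand, with the fixed letters of each element in capitals. Where CARE lies on the opposite strand it reads as its reverse complement.
Hspa5: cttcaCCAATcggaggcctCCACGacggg
Hsp90b1: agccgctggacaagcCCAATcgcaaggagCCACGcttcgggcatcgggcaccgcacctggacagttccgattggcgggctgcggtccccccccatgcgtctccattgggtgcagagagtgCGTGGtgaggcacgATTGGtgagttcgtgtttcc
Pdia6: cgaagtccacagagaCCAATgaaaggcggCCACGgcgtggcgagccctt
Dnajc3: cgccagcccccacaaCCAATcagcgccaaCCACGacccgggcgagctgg
Herpud1: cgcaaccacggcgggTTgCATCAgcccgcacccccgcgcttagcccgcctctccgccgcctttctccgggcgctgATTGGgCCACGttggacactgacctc
Asns: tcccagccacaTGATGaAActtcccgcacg
Chac1: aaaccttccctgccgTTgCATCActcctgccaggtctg
Atf3: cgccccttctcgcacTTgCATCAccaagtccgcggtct

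These stretches lie at chr2:34772020-34772048 on the plus strand for Hspa5, chr10:86705518-86705671 on the minus strand for Hsp90b1, chr12:17266476-17266524 on the plus strand for Pdia6 and chr14:118937812-118937860 on the plus strand for Dnajc3. Those of the genes with CARE lie at chr8:94386302-94386402 on the plus strand for Herpud1, chr6:7693214-7693243 on the minus strand for Asns, chr2:119351034-119351071 on the plus strand for Chac1 and chr1:191183421-191183458 on the minus strand for Atf3. By the GENCODE annotation of the same build, the Hspa5 and Asns stretches fall within an exon that starts upstream of the RefSeq start and the Atf3 stretch within an intron of a longer transcript. The other stretches lie upstream of the gene. The CARE of Trib3 begins at base 15 of the transcribed sequence and is not printed.

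Hspa5, which encodes the ER HSP70 chaperone BiP, and Calr, the lectin chaperone calreticulin, were the most abundant members on the FPKM scale (fragments scaled to transcript length and to the library, so that genes can be ranked by level). Hspa5 ranked 128 of 16232 genes in vivo with a mean of 517 FPKM, and 167 of 24421 genes in vitro with a mean of 277 FPKM. Calr followed at 503 FPKM in vivo and 239 FPKM in vitro. Atf4, the central transcription factor of the integrated stress response, had means of 193 and 165 FPKM, so its RNA was abundant in every group. Members together made up 0.577% to 0.625% of the summed FPKM in vivo and 0.424% to 0.563% in vitro.

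Some ATF4 pathway genes stood at other levels in the 2 tables, which were made and fitted separately, so these levels are set side by side with no test. Asns, asparagine synthetase, lay at 2.26 to 4.29 FPKM in vivo and at 12.9 to 57.6 FPKM in vitro. Trib3, a pseudokinase that binds ATF4, lay at 1.87 to 3.69 FPKM in vivo and at 7.11 to 21.2 FPKM in vitro. Chac1, which degrades glutathione, lay at 0.21 to 0.32 FPKM in vivo and at 1.33 to 8.21 FPKM in vitro. For each of these 3 genes every in vitro library, unstimulated ones included, was above every in vivo library. Ppp1r15a, which encodes the eIF2 phosphatase subunit GADD34, had the opposite order, with 170 to 229 FPKM in vivo and 51.0 to 150 FPKM in vitro.

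Depth is unknown, since no read totals are given and FPKM are not counts. The 7 Treg and T cell markers summed to 1842 to 2083 FPKM in vivo and to 1071 to 2174 FPKM in vitro. Foxp3, the transcription factor that defines Treg, had 114 and 117 FPKM in cKO against 107 and 106 FPKM in WT in vivo. In culture it had 71.5 and 82.6 FPKM in cKO against 194 and 189 FPKM in WT unstimulated, and 238 and 268 FPKM against 529 and 696 FPKM stimulated. It was called lower in cKO over both cultures (mean log2 difference -1.29 ± 0.12, SE, adjusted p = 0.00722 by limma). Kdm2b RNA in vivo stood at 146 and 125 FPKM in the libraries labelled cKO, above the 113 and 110 FPKM in WT. Unstimulated libraries overlapped, at 89.8 and 97.4 FPKM in cKO against 84.9 and 94.9 FPKM in WT. Stimulated cKO libraries, at 66.3 and 70.5 FPKM, lay below the WT libraries at 74.5 and 71.7 FPKM, and no genotype difference in Kdm2b was called. A gene-level value cannot show the loss of part of a transcript, so it does not check the labels, and cKO below means the libraries labelled so. Both WT libraries numbered 2 listed more genes at 0 (12379 and 13273) than the other in vitro libraries (9102 to 9857). Erythroid markers summed to 5105 to 51191 FPKM in the cKO libraries in vitro and to 11.3 to 1689 FPKM in the WT libraries, B cell markers to 148 to 192 FPKM in cKO and 28.6 to 47.0 FPKM in WT, and myeloid markers to 37.8 to 153 FPKM in cKO and 7.15 to 15.1 FPKM in WT. In bulk RNA, fewer cells of a type and less RNA per cell cannot be told apart.

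Stimulation in culture raised a set of integrated stress response genes and the foldase gene Pdia4, while most ER chaperone genes did not pass the test. With both genotypes averaged, 8 members rose and 2 fell of 32 tested (limma, adjusted p under 0.05 over the 10710 genes tested). Over all genes 12.4% were called, 5.42% higher and 7.00% lower. The members' median log2 fold change was 0.06 and that of all genes was -0.10. Every log2 fold change was taken after adding 1 to the FPKM, and this shrinks the values of genes with low levels such as Chac1.

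Pdia4, a disulfide isomerase of the ER (chr6:47796141-47813430), had the widest response of the members. Its level was 33.6 and 25.6 FPKM in unstimulated WT libraries and 84.9 and 151 FPKM in stimulated ones. In cKO it was 40.8 and 31.1 FPKM unstimulated and 133 and 160 FPKM stimulated. Every stimulated library was above every unstimulated one in both genotypes, and the log2 fold change was 1.96 ± 0.20 (SE; adjusted p = 0.00136 by limma). In vivo Pdia4 stood at 28.8 to 34.7 FPKM, within the range of the unstimulated cultures.

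The other foldase that passed the test went the other way. Pdia3 (chr2:121413775-121438687), the isomerase that works with calnexin and calreticulin, had 211 and 152 FPKM in unstimulated and 132 and 95.0 FPKM in stimulated WT libraries. In cKO it had 175 and 165 FPKM unstimulated and 122 and 110 FPKM stimulated. All stimulated libraries were below all unstimulated ones, and Pdia3 fell by 0.61 ± 0.15 (SE, adjusted p = 0.0354) on the log2 scale. The remaining 13 chaperone and foldase genes were not called, with log2 fold changes from -0.30 for Serp1 to 0.38 for Hyou1. These 2 lay close to the threshold (limma adjusted p = 0.0573 and 0.0544), each without overlap in either genotype. Hyou1 was called with median-of-ratios scaling, quantile normalization, haemoglobin genes removed or the filter at 5 FPKM. Hspa5 itself had 241 and 328 FPKM unstimulated and 296 and 321 FPKM stimulated in WT, and 235 and 216 FPKM unstimulated and 288 and 288 FPKM stimulated in cKO. Its groups overlapped in WT but not in cKO, and its log2 fold change was 0.24 ± 0.12 (SE, adjusted p = 0.213).

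Of the 9 integrated stress response genes, 5 rose, 1 fell and 3 did not pass the test, with a median log2 fold change of 0.71. Trib3 (chr2:152337422-152344032) had 8.27 and 7.11 FPKM in unstimulated WT libraries and 18.0 and 17.1 FPKM in stimulated ones. In cKO it had 10.2 and 7.72 FPKM unstimulated and 21.2 and 17.9 FPKM stimulated. The groups did not overlap in either genotype, and the log2 fold change was 1.07 ± 0.14 (SE, adjusted p = 0.00387).

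Chac1 (chr2:119351229-119354381) had 2.26 and 1.33 FPKM in unstimulated WT libraries and 8.21 and 5.36 FPKM after stimulation, against 3.18 and 2.99 FPKM and then 5.95 and 4.13 FPKM in cKO. Its log2 fold change was 1.01 ± 0.22 (SE, adjusted p = 0.0236). Atf3 (chr1:191170296-191218039), a stress-induced transcription factor that is also an immediate early gene, had 15.3 and 30.2 FPKM in unstimulated and 53.5 and 40.3 FPKM in stimulated WT libraries. In cKO, Atf3 had 17.0 and 14.9 FPKM unstimulated and 29.0 and 24.6 FPKM stimulated. Within each genotype stimulated Atf3 was above unstimulated Atf3, but the stimulated cKO libraries did not reach the higher unstimulated WT library. The mean log2 fold change of Atf3 was 0.90 ± 0.21 (SE, adjusted p = 0.033).

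Asns (chr6:7675169-7693254) had 18.1 and 12.9 FPKM in unstimulated and 28.3 and 22.1 FPKM in stimulated WT libraries. In cKO it had 30.9 and 23.3 FPKM unstimulated and 57.6 and 38.9 FPKM stimulated, so stimulated WT libraries lay in the range of unstimulated cKO libraries or just below it. Its log2 fold change was 0.74 ± 0.18 (SE, adjusted p = 0.0398). Sesn2 (chr4:132492032-132510501), sestrin 2, which restrains mTORC1, had 11.4 and 11.4 FPKM unstimulated and 20.5 and 23.3 FPKM stimulated in WT, and 15.4 and 12.9 FPKM unstimulated and 22.0 and 19.7 FPKM stimulated in cKO. It rose by 0.71 ± 0.12 (SE, adjusted p = 0.01) with no overlap in either genotype.

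Ddit4 (chr10:59949669-59951834), which encodes the mTORC1 inhibitor REDD1, was the member of this arm that fell. It had 35.5 and 48.4 FPKM unstimulated and 22.7 and 30.5 FPKM stimulated in WT, and 36.6 and 35.7 FPKM unstimulated and 22.5 and 17.5 FPKM stimulated in cKO. All 4 stimulated libraries were below all 4 unstimulated ones, and Ddit4 fell by 0.73 ± 0.15 (SE, adjusted p = 0.0218). Atf4, Ddit3 and Ppp1r15a were not called. Atf4 RNA had 171 and 190 FPKM unstimulated and 202 and 202 FPKM stimulated in WT, and 136 and 161 FPKM unstimulated and 136 and 124 FPKM stimulated in cKO. Its log2 fold change was -0.01 ± 0.10 (SE, adjusted p = 0.961). Ddit3, which encodes the pro-apoptotic factor CHOP, stood at a log2 value of -0.41 ± 0.16 (SE, adjusted p = 0.12), and Ppp1r15a had -0.43 ± 0.16 (SE, adjusted p = 0.119).

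Among sensors, transcription factors and degradation genes, Xbp1 and Herpud1 rose. Xbp1 (chr11:5520659-5525893) had 85.7 and 71.0 FPKM in unstimulated and 114 and 103 FPKM in stimulated WT libraries. In cKO it had 64.7 and 55.7 FPKM unstimulated and 101 and 87.6 FPKM stimulated. Stimulated libraries were above all unstimulated ones, and Xbp1 rose by 0.55 ± 0.11 (SE, adjusted p = 0.0192). Herpud1 (chr8:94386438-94395377), an ER membrane protein of the degradation complex, had 48.4 and 54.9 FPKM unstimulated and 88.9 and 70.7 FPKM stimulated in WT, and 55.8 and 43.5 FPKM unstimulated and 78.0 and 68.5 FPKM stimulated in cKO. It rose by 0.59 ± 0.13 (SE, adjusted p = 0.026), again with no overlap.

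The sensors themselves were not called. Ern1 had 9.19 and 10.6 FPKM unstimulated and 9.69 and 15.03 FPKM stimulated in WT, and 8.15 and 12.1 FPKM unstimulated and 10.2 and 10.3 FPKM stimulated in cKO. Atf6 lay at 3.88 to 6.53 FPKM in the 4 unstimulated libraries and at 5.42 to 10.8 FPKM in the 4 stimulated ones, higher without overlap within each genotype (log2 fold change 0.65 ± 0.23, SE, adjusted p = 0.101). Eif2ak3 lay at 17.3 to 24.2 FPKM unstimulated and at 10.9 to 20.8 FPKM stimulated (log2 fold change -0.57 ± 0.21, SE, adjusted p = 0.111). Sel1l, Syvn1 and Edem1, the other degradation genes, had log2 fold changes of 0.11, -0.28 and -0.02.

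**Figure D1:**
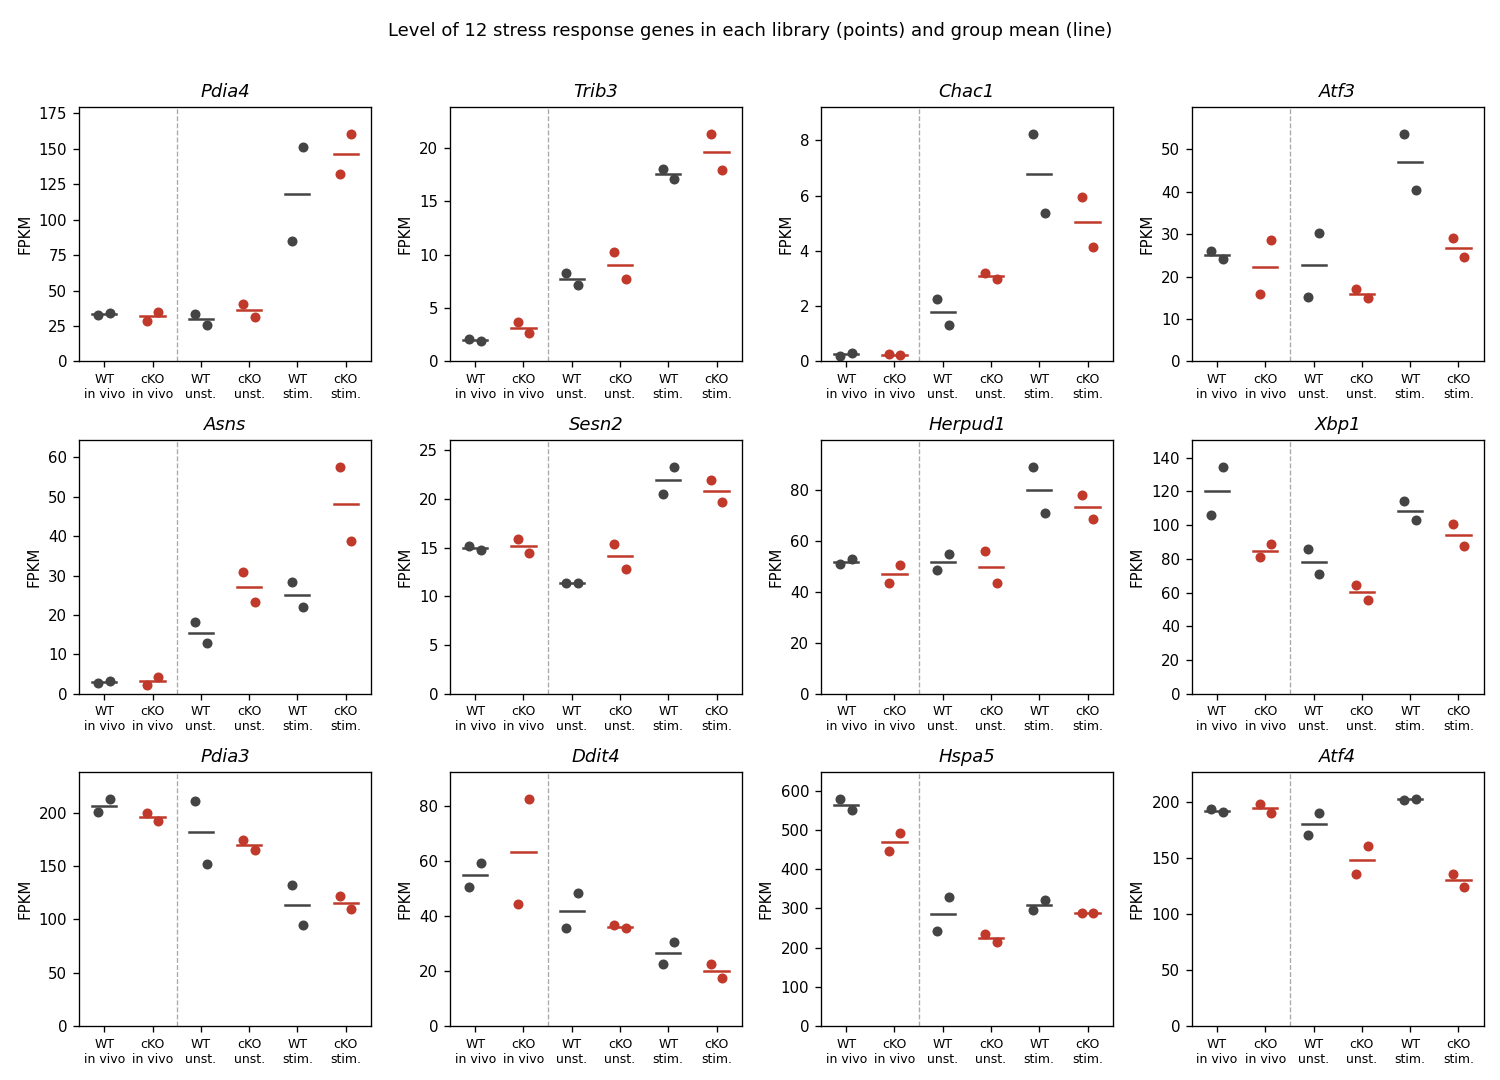
Level in FPKM (vertical axis, from 0) of 12 stress response genes in each library (points) with the group mean (line), for the 6 groups, with in vivo left and in vitro right of the dashed line and WT in grey and cKO in red. The first 8 genes, Pdia4 to Xbp1, are higher in every stimulated than in every unstimulated library of the same genotype, Pdia3 and Ddit4 are lower, Hspa5 overlaps in WT, and Atf4 is higher in stimulated WT and lower in stimulated cKO.

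Within each genotype the test had 2 libraries against 2. In WT, 3 of 32 members rose on stimulation and none fell (2.43% of all genes were called). These were Pdia4 (log2 fold change 1.91 ± 0.28, SE, adjusted p = 0.0164), Trib3 (1.10 ± 0.20, SE, adjusted p = 0.0343) and Sesn2 (0.89 ± 0.17, SE, adjusted p = 0.0426). In cKO, 2 of 32 members rose and none fell (4.58% of all genes were called), namely Pdia4 (2.00 ± 0.28, SE, adjusted p = 0.0137) and Trib3 (1.05 ± 0.20, SE, adjusted p = 0.0318).

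**Figure D2:**
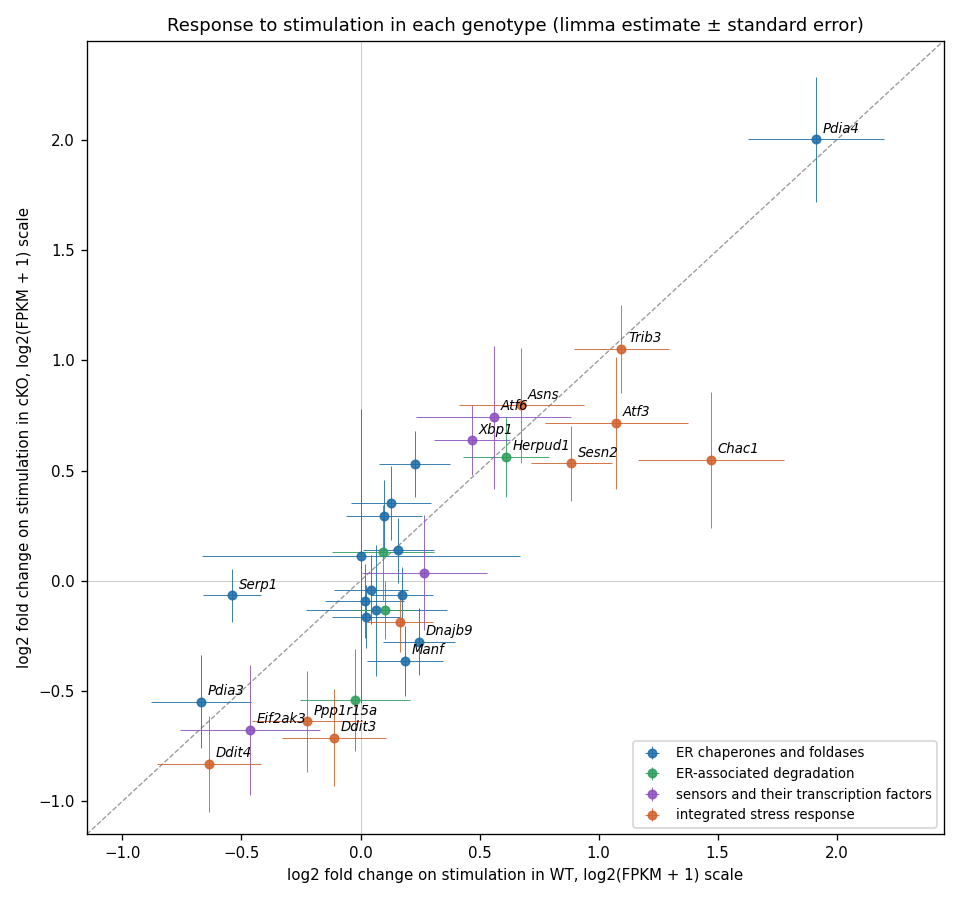
Log2 fold change on stimulation in WT (horizontal axis) against cKO (vertical axis), with standard errors, for the 32 genes coloured by role, and with the line of equal response dashed. Pdia4 and Trib3 lie near the line at 1.91 and 2.00 and at 1.10 and 1.05, and Chac1 lies below it at 1.47 in WT and 0.55 in cKO.

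No member was called for a different response to stimulation between the genotypes (0 of 32 members and 0.00% of all genes by the limma interaction test, smallest member adjusted p 0.999). On simulated data this test recovered 19.4% of 2-fold and 97% of 4-fold differences, so a 2-fold difference could be missed. The simulated differences were placed only in genes above the levels of Chac1, Sdf2l1 and Atf6, so these shares do not cover those genes. At an unadjusted p under 0.05, 3 members had a difference, Dnajb9, Manf and Serp1, as did 380 of all 10710 genes. The interaction log2 value was below 0 for 8 of the 9 integrated stress response genes and for 21 of the 32 members. Over all genes 6260 of 10710 were below 0. How far this lean went depended on the scaling. The members' median interaction value was -0.15. With median-of-ratios scaling it was -0.06, with 17 of 32 members below 0 and a median of 0.01 for all genes. Quantile normalization gave -0.05, with 20 of 32 members below 0 and 0.01 for all genes. With haemoglobin genes removed it was -0.15, with 21 of 32 below 0 and -0.08 for all genes. The integrated stress response genes were not counted again under these scalings. The values with the largest distance from 0 were -0.93 ± 0.43 (SE) for Chac1 and -0.60 ± 0.31 (SE) for Ddit3, each with an adjusted p of 0.999.

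For mean stimulation, leaving out any 1 cKO library left fewer members called than leaving out any 1 WT library. Such fits hold a single library in 1 group. The share of all genes called in them is not given here, so this order was not set against that of all genes. Of the 10 called members, Pdia4 was called in all 20 alternative settings and Trib3 in 19, while Asns was called in 9. Median-of-ratios scaling, quantile normalization and removal of haemoglobin genes shifted the log2 median of all genes in the cKO stimulation contrast by 0.12, 0.13 and 0.11, and no called member changed direction. In the mean contrast they gave 9, 10 and 9 members higher and 2, 2 and 1 lower, and 24, 24 and 25 of 32 members lay above 0, against 18 of 32 without them.

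The calls are set beside the promoter elements as a description with no test. All 5 members with CARE rose on stimulation, with log2 fold changes from 0.59 for Herpud1 to 1.07 for Trib3. None of the 8 members with ERSE was called, with values from -0.28 for Syvn1 to 0.24 for Hspa5. Dnajb11, with ERSE-II, had 0.05. Of the 15 members with none of the 3 elements in this window, 5 of the 10 called members among them, Pdia4, Sesn2 and Xbp1 rose and Pdia3 and Ddit4 fell. Among all tested genes with a promoter entry, 10.1% of 228 genes with CARE were called higher, against 5.29% of 8277 genes without it, and 7.02% against 7.09% were called lower. Those 228 genes include the 5 members, and without them 8.07% of 223 genes were called higher and 7.17% lower. Of 15 tested genes with ERSE, which include the 8 members, 0 were called in either direction.

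**Figure D3:**
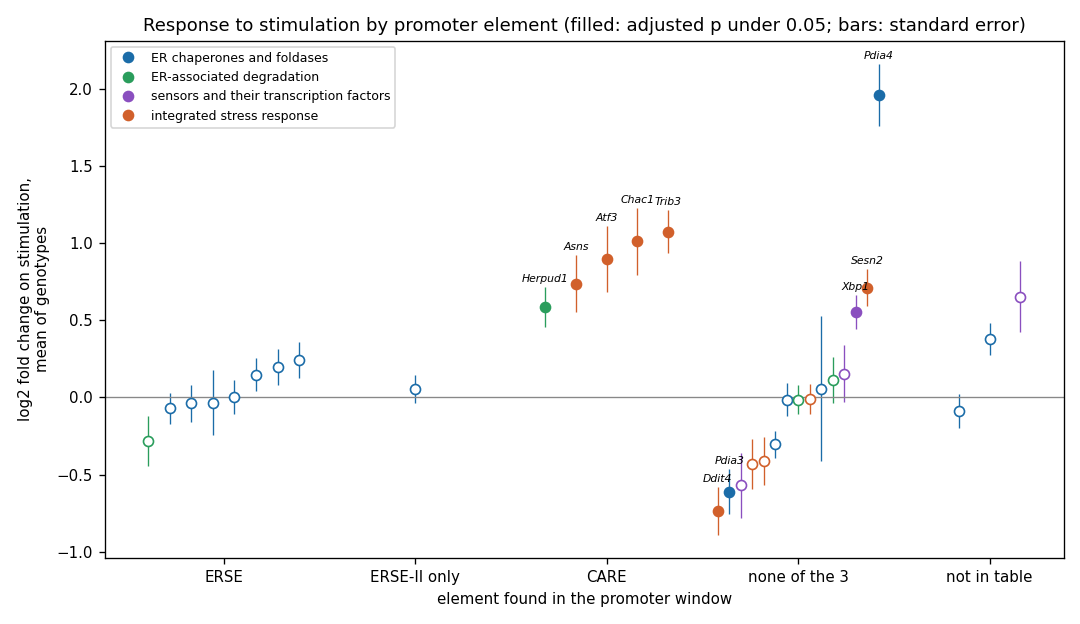
Log2 fold change on stimulation, mean of genotypes (vertical axis, with standard error), for the 32 genes grouped by the element found in the promoter window and coloured by role, with filled points for an adjusted p under 0.05. The 5 genes with CARE, Herpud1 among them although it also holds ERSE-II, lie between 0.59 and 1.07, and the 8 genes with ERSE lie between -0.28 and 0.24.

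Other genes of the 2 pathways were listed apart from the members, and their counts stand beside the 5.42% of all genes called higher and 7.00% called lower. Of 23 tested ATF4 partners and targets outside the member list, 9 rose and 1 fell on stimulation, with a median log2 fold change of 0.36. Aldh18a1, an enzyme of proline synthesis, rose by 1.84 ± 0.12 (SE, adjusted p = 0.000233), Slc7a1, a transporter of cationic amino acids, by 1.45 ± 0.12 and Slc1a4, a transporter of neutral amino acids, by 1.06 ± 0.19. Txnip, a thioredoxin inhibitor that follows glucose supply, fell by 1.92 ± 0.17 (SE, adjusted p = 0.000788). Of 22 other folding factors 2 rose, Ero1a (0.66 ± 0.14), the oxidase that recharges disulfide isomerases, and Stt3b (0.53 ± 0.12), a catalytic subunit of the oligosaccharyltransferase.

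The remaining lists held 2 called genes each, a number to be read against the same 5.42% and 7.00%. Of 26 other degradation genes, Selenok (-0.50) and Ufd1 (-0.41) fell and none rose. Of 13 other sensors and ER stress factors, Bbc3 (-1.25), a pro-apoptotic BH3-only gene, and Traf2 (-0.47) fell. Of 22 translocation and secretion genes, Kdelr1 (-0.69), a receptor that returns ER proteins from the Golgi, and Spcs2 (-0.45) fell. Of 15 genes for eIF2, its kinases and eIF2B, Gcn1 (0.50), an activator of the kinase GCN2, and Eif2s2 (0.42) rose. These gene lists, like the members, were drawn up with earlier results of these data known.

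Between genotypes, no member passed the test in vivo, unstimulated or stimulated, and the smallest adjusted p was 0.0912 for Serp1 in stimulated cells. In vivo, 0 of 31 tested members were called by limma (0.374% of all genes), and 6 had an unadjusted p under 0.05, as had 1350 of all 10415 genes. Unstimulated, 0 of 32 were called (0.0747% of all genes), with 3 at an unadjusted p under 0.05, against 703 of all 10710 genes. Stimulated, 0 of 32 were called (0.0187% of all genes), with 10 at an unadjusted p under 0.05, against 1508 of all 10710 genes. Chac1 was below the filter of a mean of 1 FPKM in vivo. The median log2 difference of the members, cKO over WT, was -0.08 in vivo, 0.03 unstimulated and -0.11 stimulated, against -0.02, 0.02 and -0.05 for all genes. The stimulated value depended on the scaling. It had 21 of 32 members below 0, but with median-of-ratios scaling 16 of 32 lay below 0 with a median of -0.0048, and with quantile normalization 18 of 32 with a median of -0.03. Without the first stimulated WT library this median was 0.0039.

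With the unstimulated and stimulated cultures averaged, 1 of 32 members was called (1.08% of all genes). Serp1 (chr3:58519817-58525892), which encodes a small protein that stabilises newly made membrane proteins at the translocon, was higher in cKO. In unstimulated cells it had 179 and 183 FPKM in cKO against 144 and 159 FPKM in WT, and in stimulated cells 174 and 172 FPKM against 105 and 102 FPKM. The libraries did not overlap, and the mean log2 difference was 0.49 ± 0.09 (SE, adjusted p = 0.045). In vivo Serp1 had 157 and 145 FPKM in cKO against 129 and 131 FPKM in WT (log2 difference 0.22 ± 0.09, SE, adjusted p = 0.39). The call was held in 4 of 20 alternative settings, and leaving out any 1 of the 8 in vitro libraries ended it, with adjusted p from 0.0314 to 0.811 over the settings while the log2 difference stayed between 0.46 and 0.57. The erythroid, B cell and myeloid marker sums and the Foxp3 levels given above also separate the genotypes in culture, and their part in this and the other genotype differences in culture was not tested.

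The 3 genotype comparisons share no library, so the position of each library can be set side by side. Of 31 members measured in all 3, Hspa5, Xbp1, Ppp1r15a and Dnajb11 had both cKO libraries below both WT libraries each time (3.65% of all genes did), and Serp1 and Sel1l had both above (2.42% of all genes). Within single comparisons the groups did not overlap for 5 members higher and 13 lower of 31 in vivo (21.5% and 25.8% of all genes). The counts were 8 higher and 5 lower of 32 unstimulated (17.8% and 16.6%) and 7 higher and 12 lower of 32 stimulated (18.5% and 29.8%). With all libraries, none of these 6 genes but Serp1 was called in any genotype comparison. B cell markers, whose part in the in vivo values was not tested, summed to 17.5 and 25.3 FPKM in cKO and 54.9 and 71.6 FPKM in WT in vivo, the opposite order to that in culture.

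Hspa5 had 447 and 492 FPKM in cKO against 578 and 550 FPKM in WT in vivo, a log2 difference of -0.27 ± 0.09 (SE, adjusted p = 0.302). The difference was -0.32 ± 0.17 (SE, adjusted p = 0.835) in unstimulated and -0.10 ± 0.17 (SE, adjusted p = 0.824) in stimulated cells, where the groups were separated by less than the distance between the WT libraries. Dnajb11, an HSP40 co-chaperone of BiP, had 52.5 and 50.5 FPKM against 56.3 and 60.1 FPKM in vivo, and 38.0 and 38.5 FPKM against 47.6 and 51.6 FPKM in stimulated cells. Its log2 differences were -0.17, -0.12 and -0.37 in vivo, unstimulated and stimulated. Sel1l, the scaffold of the degradation ligase, had 17.6 and 15.3 FPKM against 14.7 and 14.8 FPKM in vivo, with log2 differences of 0.15, 0.36 and 0.39.

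Xbp1 had 81.1 and 88.7 FPKM in cKO against 106 and 134 FPKM in WT in vivo (log2 difference -0.49 ± 0.13, SE, adjusted p = 0.218), and its differences were -0.37 unstimulated and -0.21 stimulated. Xbp1 is abundant in plasma cells, and the second WT in vivo library, which had the highest Xbp1, also had the highest plasma cell marker sum in vivo, 165 FPKM against 57.3 to 88.8 FPKM in the others. Jchain, which encodes the joining chain of secreted antibody, was at 113 FPKM there. The plasma cell sum also holds Txndc5 and Derl3, which stand in the ER folding and degradation lists. Igkc, Ighm and Iglc1 were found neither in vivo nor in vitro. In culture the highest sum, 291 FPKM, was in the first stimulated WT library, and the sums of the other in vitro libraries lay between 31.7 and 121 FPKM in both genotypes. The part of such transcripts in the Xbp1 values was not tested.

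Ppp1r15a had the widest genotype difference of the members in stimulated cells, with 51.6 and 51.0 FPKM in cKO against 108 and 101 FPKM in WT (log2 difference -1.01 ± 0.23, SE, adjusted p = 0.147). In unstimulated cells it had 67.5 and 95.7 FPKM against 98.9 and 150 FPKM (-0.60 ± 0.23, SE, adjusted p = 0.693), and in vivo 170 and 181 FPKM against 229 and 190 FPKM (-0.25 ± 0.12, SE, adjusted p = 0.42). Averaged over both cultures the difference was -0.80 ± 0.16 (SE, adjusted p = 0.07), and it passed the threshold when the first unstimulated WT library was left out (-0.95, adjusted p = 0.0447). A list of 17 handling and immediate early genes, which respond to cell isolation as well as to stimuli, summed to 1897 and 1783 FPKM in stimulated cKO against 2631 and 2917 FPKM in stimulated WT libraries. Its median log2 difference there was -0.51, with 14 of 17 genes lower without overlap, and its part in the Ppp1r15a and Atf3 values was not tested.

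Other integrated stress response genes had values in both directions. Atf4 RNA in stimulated cells was 136 and 124 FPKM in cKO against 202 and 202 FPKM in WT (log2 difference -0.63 ± 0.14, SE, adjusted p = 0.139), and in vivo 198 and 190 FPKM against 193 and 190 FPKM. Asns was higher in cKO in both cultures without overlap, with a mean log2 difference of 0.83 ± 0.18 (SE, adjusted p = 0.0869), and in vivo its groups overlapped at 2.26 and 4.29 FPKM against 2.62 and 3.28 FPKM. Ddit3 had 68.2 and 47.6 FPKM in cKO against 41.8 and 40.4 FPKM in WT in vivo, but 18.0 and 11.7 FPKM against 26.5 and 21.9 FPKM in stimulated cells. Unstimulated Ddit3 overlapped, at 22.7 and 26.3 FPKM against 25.3 and 27.0 FPKM.

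Trib3 in vivo had 3.69 and 2.64 FPKM in cKO against 2.08 and 1.87 FPKM in WT, a log2 difference of 0.48 ± 0.17 (SE, adjusted p = 0.336). Ddit4 spread more within cKO in vivo, at 44.2 and 82.4 FPKM, than between the genotypes, where WT had 50.7 and 59.3 FPKM. Sesn2 in vivo lay between 14.5 and 15.9 FPKM in all 4 libraries. Atf3 in stimulated cells had a log2 difference of -0.77 ± 0.30 (SE, adjusted p = 0.307), and Chac1 in stimulated cells had -0.36 ± 0.31 (SE, adjusted p = 0.633).

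Among the sensors in vivo, Ern1 had 12.0 and 17.3 FPKM in cKO against 10.4 and 11.7 FPKM in WT, while Atf6 (3.15 and 4.89 against 5.40 and 5.48 FPKM) and Eif2ak3 (34.3 and 39.7 against 44.4 and 45.5 FPKM) were lower in cKO, all 3 without overlap and none called. Their log2 differences were 0.36 ± 0.18, -0.38 ± 0.19 and -0.28 ± 0.11 (SE). In culture, the groups of all 3 sensors overlapped between the genotypes, both unstimulated and stimulated.

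Leaving out either cKO library in vivo gave calls that the full set did not, and leaving out either WT library did not. In such fits the lone library of a group is assumed to vary like the other group. The share of all genes called in them is not given here, so only effect sizes follow. Without the second cKO library (in the order of the table), log2 differences were -0.34 for Hspa5, -0.42 for Dnajb9, -0.55 for Xbp1 and -0.63 for Atf6. They were -0.38 for Eif2ak3, -0.63 for Atf3, 0.72 for Ddit3 and 0.66 for Trib3. Without the first cKO library, Ern1 had 0.61 and Ddit4 had 0.58. The 2 cKO libraries differed for several of these genes, as for Atf3 with 15.8 and 28.5 FPKM.

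**Figure D4:**
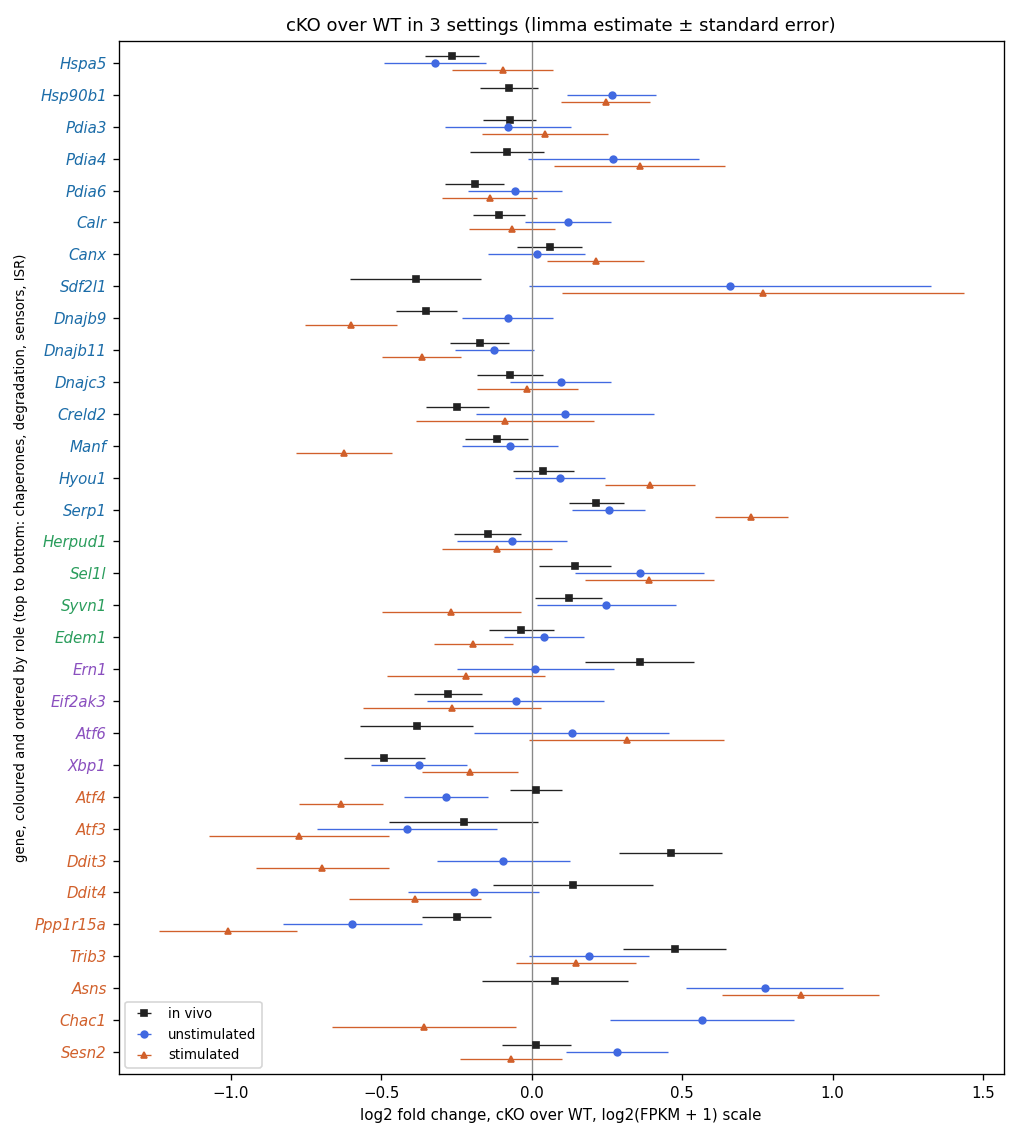
Log2 difference, cKO over WT (horizontal axis), with standard error, for each of the 32 genes (vertical axis, ordered and coloured by role) in vivo (squares), unstimulated (circles) and stimulated (triangles). Serp1 and Sel1l lie above 0 and Hspa5, Dnajb11, Xbp1 and Ppp1r15a below 0 in all 3 settings, and none of these values passed the test within 1 setting.

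No chaperone or foldase gene other than Serp1 was called between genotypes. In stimulated cells, Dnajb9, an HSP40 co-chaperone induced by IRE1 and XBP1, had 22.5 and 23.4 FPKM in cKO against 35.3 and 35.3 FPKM in WT (log2 difference -0.60 ± 0.15, SE, adjusted p = 0.171). In vivo it had 49.2 and 54.3 FPKM against 65.1 and 67.1 FPKM (-0.35 ± 0.10, SE, adjusted p = 0.251). Manf, a secreted ER stress protein, had 16.0 and 16.1 FPKM against 24.5 and 26.1 FPKM in stimulated cells (-0.62 ± 0.16, SE, adjusted p = 0.171). Hyou1, an ER chaperone and exchange factor of BiP, had 41.0 and 40.2 FPKM in stimulated cKO against 29.2 and 32.1 FPKM in WT (0.39 ± 0.15, SE, adjusted p = 0.298).

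Hsp90b1, the ER HSP90 chaperone, had log2 differences of 0.27 and 0.25 in unstimulated and stimulated cells and -0.08 in vivo. Sdf2l1, a cofactor of BiP cycling, had the lowest in vitro level of the chaperone genes, at 1.38 and 2.09 FPKM in the WT libraries numbered 2 and at 5.40 to 9.04 FPKM in the other 6. Its log2 differences were 0.66 ± 0.67 unstimulated and 0.77 ± 0.67 stimulated (SE, adjusted p = 0.947 and 0.637). Those 2 libraries are the ones that listed more genes at 0, and whether this lowered Sdf2l1 was not tested. Calr, Canx, Pdia3, Pdia6, Dnajc3 and Creld2 had log2 differences between -0.25 and 0.21 in the 3 comparisons.

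**Figure D5:**
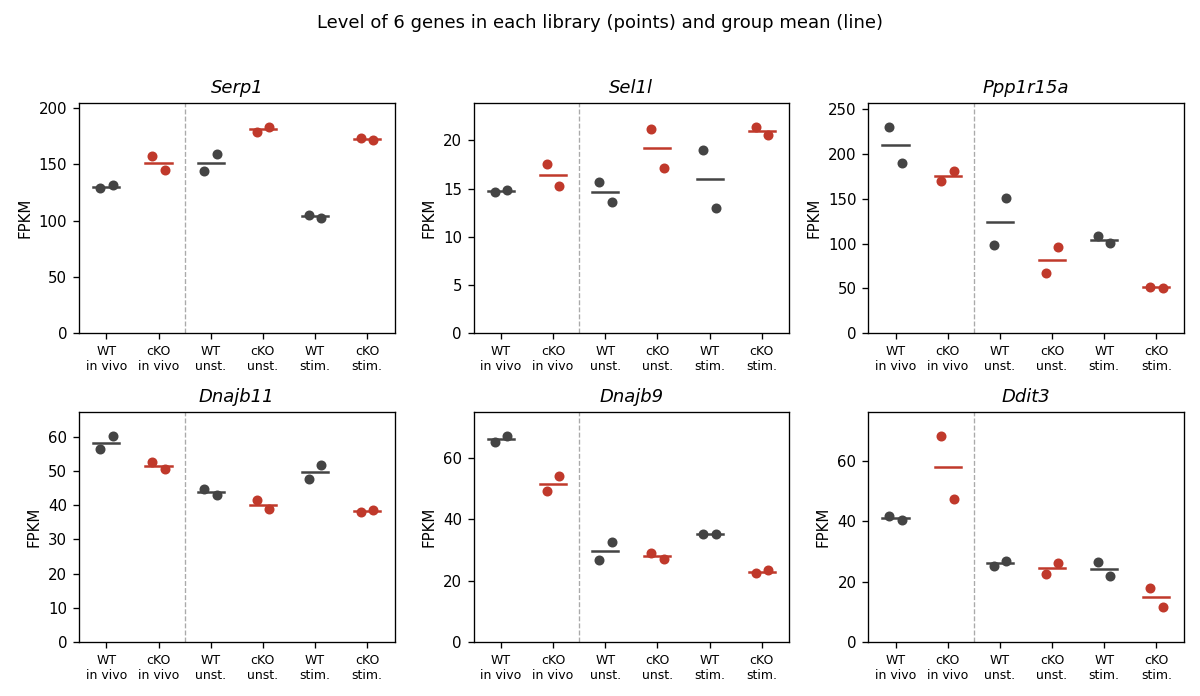
Level in FPKM (vertical axis, from 0) of 6 genes in each library (points) with the group mean (line), for the 6 groups, with in vivo left and in vitro right of the dashed line and WT in grey and cKO in red. Serp1 and Sel1l are higher and Ppp1r15a and Dnajb11 lower in both cKO libraries of each setting, and Ddit3 is higher in cKO in vivo and lower in stimulated cKO.

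Of the other pathway genes, 1 was called between genotypes, in the mean of both cultures, where 1.08% of all genes were called. It was 1 of 23 tested ATF4 partners and targets, and the other pathway lists held none. Cebpb, a bZIP partner of ATF4, was lower in cKO in culture, at 26.5 and 22.7 FPKM against 42.3 and 43.5 FPKM unstimulated and at 18.7 and 13.0 FPKM against 42.6 and 29.6 FPKM stimulated (mean log2 difference -0.96 ± 0.16, SE, adjusted p = 0.0392). In vivo Cebpb had 19.6 and 25.5 FPKM in cKO against 31.4 and 36.2 FPKM in WT (-0.57 ± 0.15, SE, adjusted p = 0.213). Among translocation genes Spcs3, a signal peptidase subunit, had positive log2 values of 0.25, 0.48 and 0.33 in the 3 settings with adjusted p of 0.214 or more in each and in the mean.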

How the data were processed

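Polyadenylated RNA of 12 Treg libraries had been sequenced. The authors deposited 2 tables of FPKM, 1 in vivo (4 libraries) and 1 in vitro (8 libraries). HISAT2 2.2.1 and StringTie 2.1.1 and the builds mm10 and hg19 are named, per the submitters' processing notes, with no role; annotation, filters and read totals are not given in the sources used here. Groups came from the titles. In vivo columns carry no replicate number, and 4 more columns that match no listed sample were not used. In vivo Entrez numbers were matched to symbols through RefSeq (16196 of 16232).

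FPKM are not counts, so each table was fitted alone with limma 3.58.1 in R 4.3.3 on log2(FPKM + 1), letting the prior variance follow the level (two-sided tests). Genes averaging under 1 FPKM were left out, which kept 10415 in vivo and 10710 in vitro. Calls required an adjusted p (Benjamini-Hochberg, all kept genes) below 0.05. The scripts were tested on simulated data. Alternatives changed the pseudocount (0.1), the filter (none, or 5 FPKM), the scaling, the variance model, the libraries and the replicate block; 4 of them were added after seeing the data. Members were named with per-library values where called in any contrast, together with 8 set genes, and other pathway genes by at most 4 called per contrast. The members and lists were chosen with earlier results of these data known.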

Additional observations from a re-analysis of the deposited data

Results flagged for a closer look

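For 4 genes both libraries of one condition lay above the other on stimulation in WT and below it in cKO, and the difference of the 2 responses (cKO minus WT, log2) was -0.52 for Dnajb9, -0.55 for Manf, -0.24 for Dnajb11 and -0.35 for Atf4. The interaction test did not call any of them (limma adjusted p = 0.999 each). In cKO the separation was narrow for Atf4, with a lowest unstimulated value of 135.98 and a highest stimulated value of 135.53 FPKM. It was also narrow for Dnajb11, at 38.86 and 38.46 FPKM. These orders are those of the FPKM as deposited. The log2 median of all genes on stimulation in cKO was -0.14, and median-of-ratios scaling shifted it by 0.12. Whether the orders in cKO hold after such scaling was not tested. The share of all genes with such opposite orders, on stimulation or between systems, was not counted. Between systems, the genotype groups were separated in opposite directions for Ddit3, whose log2 genotype difference was lower by 1.16 in stimulated cells than in vivo (-1.16), and for Calr, whose difference was higher by 0.23 in unstimulated cells than in vivo. These 2 differences were not tested, since the tables were made separately.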

How the results depend on the processing

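Depth is unknown and groups hold 2 libraries, which limits every result. No member called in the reported fits reversed direction. Medians close to 0 did change sign. The members' median log2 difference for the mean genotype contrast (-0.01) changed sign in 5 of 20 alternatives, reaching 0.04 with median-of-ratios scaling, and that for stimulation in cKO (-0.0019) in 7 of 21, with a range of -0.04 to 0.17. The medians for mean stimulation (0.06), the unstimulated (0.03) and the stimulated genotype difference (-0.11) did so in 1 of 20, 2 of 21 and 1 of 21. The all-gene median moved from -0.05 to 0.05 for the stimulated genotype difference with median-of-ratios scaling, and from 0.02 to -0.02 for the unstimulated one with quantile normalization. The shares of all genes called are given above for the reported fits only. Whether the counts below follow a change in calling over all genes was therefore not tested. Members called on stimulation (mean of genotypes, 10) numbered 4 with no filter and 6 without the trend. In WT (3 called) the counts were 0 with no filter, 1 without the trend and 0 with only the 4 samples compared. In cKO (2 called) they were 0 with no filter, 1 without the trend and 8 with only the 4 samples compared. Median-of-ratios scaling and quantile normalization gave 4 each in cKO. The stimulation calls also changed when libraries were left out, in fits with 1 library in a group. Serp1, the 1 member called for the mean genotype difference, was lost (0 called) with a pseudocount of 0.1, with no filter, without the trend and with haemoglobin genes removed. It was also lost without both WT libraries numbered 2, without both cKO libraries numbered 1 and leaving out any 1 library. Without the first unstimulated WT library, Ppp1r15a passed the threshold instead (log2 difference -0.95). In vivo, the count of 0 did not hold when either cKO library was left out, in fits with 1 library in a group. Elsewhere, counts of 0 stayed at 0 under all alternatives run. The causes were not tested.

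Same-numbered libraries deviated together within a genotype (r = 0.42 in cKO, 0.24 in WT) but not between genotypes (-0.14 and 0.04). The numbers were therefore not taken to pair WT with cKO samples. No label says whether they pair unstimulated with stimulated libraries of a genotype, and the values between genotypes cannot decide this. The reported stimulation tests treat these libraries as unpaired. The block that was fitted is shared by both genotypes, and no separate block for each genotype was fitted. With the replicate block, 11 members were called on mean stimulation, 3 in WT, 4 in cKO and 1 for the mean genotype difference, which was Asns in place of Serp1. With the WT numbers crossed, the counts were 10, 3, 3 and 0. In vivo columns carry no numbers, so no block was fitted there.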
